A study of Mus musculus with 60 samples.

Results

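The genes described here are 9 housekeeping genes that have no role in building glycans but are carried on a custom mouse glycan array: Rab7, Copg1, Ube2g1, Ube2r2, Huwe1, Eif5, Rrn3, Snrnp27 and Hp1bp3. They are 9 of the 908 genes that could be named on the array, and each is measured by 1 probe set. The name of the Rab7 probe set lacks the letters psr that the others carry, as do 44 of the 962 named probe sets. That of Snrnp27 alone among the 9 has an s suffix, as do 186 named probe sets. The part of the kind of probe set in the values was not tested. The genes were chosen by their cellular roles and with earlier values from these arrays in view, among them a Rab7 difference in mammary gland and Ube2g1 differences in brain and testes between animals labelled knockout and wild type. Those differences are therefore given as a description. Transcript levels were measured on 60 arrays of 18 mice in 8 tissues. The St6galnac2 line contributed 3 animals labelled KO (1 female and 2 male, 11 arrays) and 3 labelled WT (1 female and 2 male, 13 arrays), from which brain, intestine, thyroid and lymph node were taken. The line labelled as a B4galnt1 and B4galnt2 double knockout contributed 5 DKO animals (2 female and 3 male, 18 arrays) and 4 WT animals (1 female and 3 male, 12 arrays), from which kidney, mammary gland, thymus and testes were taken. C57 WT mice added 3 animals, whose arrays carry no sex label, with brain and small intestine only (6 arrays). All animals were labelled healthy, and age, how the alleles were made and the background strain of the knockout lines are not given in the sources used here. Animals carry separate numbers in the labels, so the animal is the replicate.

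Housekeeping genes encode machinery that nearly every cell needs, and genes with a steady transcript level are used as references against which other genes are read. RAB7 is the small GTPase that directs traffic from late endosomes to lysosomes, and COPG1 is a subunit of the COPI coat on vesicles that move from the Golgi back to the endoplasmic reticulum. UBE2G1 and UBE2R2 are ubiquitin-conjugating enzymes, and HUWE1 is a large ubiquitin ligase. EIF5 acts in start codon selection during translation initiation, and RRN3 brings RNA polymerase I to the ribosomal RNA genes. SNRNP27 is a protein of the U4/U6.U5 tri-snRNP of the spliceosome, and HP1BP3 is a histone H1-related chromatin protein.

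Values are log2 intensities, so a difference of 1 is a 2-fold change. They ran from 2.11 to 14.07 over 1246 probe sets, of which 962 could be named, and the array medians lay between 5.30 and 5.76. Correlated with the mean of the other arrays of its labelled tissue, 56 of the 60 arrays matched their label best. The other 4 stood apart with correlations below 0.3: the first of the 2 brain arrays of WT animal 9099, the intestine array of the same animal, and the thymus arrays of WT animals N3738 and N3740. The first brain array of 9099 had a mean of 4.10 over 9 brain markers and correlated with intestine at 0.956, and its intestine array had 8.51 over the same markers and correlated with brain at 0.945. The thymus arrays of N3738 and N3740 had means of 11.54 and 11.36 over Prol1 and B3gnt6, against 3.37 to 3.51 on the other thymus arrays. Prol1 and B3gnt6 are the 2 genes measured of 6 listed for salivary or other gland, and they do not identify the tissue. All 4 arrays were used as labelled in the tests, and values without them are given beside the results they move most. Outside these arrays, the marker means of brain, intestine, testes, kidney and lymph node were higher in the labelled tissue than in every other tissue. The thymus markers were not (5.31 to 5.52 in thymus, 5.12 to 6.17 in lymph node), the 3 mammary markers measured overlapped other tissues, and for thyroid only Chga was measured. The targeted genes gave no clear separation of the genotypes in most tissues: St6galnac2 was at 8.65 and 8.74 in intestine labelled KO and at 8.74, 8.77 and 5.67 (the array of 9099 that stood apart) in WT, and B4galnt1 was at 5.30 to 6.04 in kidney labelled DKO and at 5.47 to 5.93 in WT. In thymus, B4galnt1 was at 4.73 to 5.23 in DKO animals, below WT animal N9700 at 5.45 and the 2 WT arrays that stood apart at 8.72 and 8.44. Whether these probe sets lie in the deleted parts is not given, so they check nothing, and the groups are called by their labels throughout. In bulk tissue a lower value can mean fewer cells of a type or less RNA per cell, and these cannot be told apart.

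The promoters of all 9 genes were found in the RefSeq table for build GRCm38.p6, as 10 windows of 300 bases running from 250 bases before to 50 bases after a transcription start. Rab7 has 2 such windows. The 4 windows shown are those of Rab7 and Copg1, neighbours 0.086 Mb apart on chromosome 6 that differed in opposite directions between lines in brain, and Huwe1 and Hp1bp3, the pair whose profiles over groups were most alike. Capitals mark matches, on either strand, to the 4 motifs searched, which were the CCAAT box, the TATAAA form of the TATA box, the GC box with the letters GGGCGG, and the E-box with the letters CACGTG. No match overlapped a match to another of these motifs in the windows shown. The Rab7 window (the first of its 2) lies at chr6:88045221-88045520 on the minus strand, the Copg1 window at chr6:87887690-87887989 on the plus strand, the Huwe1 window at chrX:151803032-151803331 on the plus strand, and the Hp1bp3 window at chr4:138216877-138217176 on the plus strand.
Rab7: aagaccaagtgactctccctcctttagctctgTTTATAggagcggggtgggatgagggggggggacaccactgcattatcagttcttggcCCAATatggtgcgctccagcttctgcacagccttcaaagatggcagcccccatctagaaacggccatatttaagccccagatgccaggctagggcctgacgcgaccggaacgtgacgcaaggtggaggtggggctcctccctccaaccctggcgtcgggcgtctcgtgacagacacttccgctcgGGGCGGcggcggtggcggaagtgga
Copg1: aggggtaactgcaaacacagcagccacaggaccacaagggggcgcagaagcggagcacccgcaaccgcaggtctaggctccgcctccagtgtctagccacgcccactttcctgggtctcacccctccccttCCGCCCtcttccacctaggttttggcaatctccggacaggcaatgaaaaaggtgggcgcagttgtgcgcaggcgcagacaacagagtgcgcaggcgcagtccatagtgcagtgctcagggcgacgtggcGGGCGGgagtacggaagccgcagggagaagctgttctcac
Huwe1: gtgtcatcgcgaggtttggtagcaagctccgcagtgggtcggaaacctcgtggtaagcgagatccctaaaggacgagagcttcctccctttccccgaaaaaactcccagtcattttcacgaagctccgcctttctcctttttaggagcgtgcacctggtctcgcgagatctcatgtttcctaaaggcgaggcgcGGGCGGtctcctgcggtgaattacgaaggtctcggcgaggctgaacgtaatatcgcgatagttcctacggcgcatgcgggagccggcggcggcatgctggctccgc
Hp1bp3: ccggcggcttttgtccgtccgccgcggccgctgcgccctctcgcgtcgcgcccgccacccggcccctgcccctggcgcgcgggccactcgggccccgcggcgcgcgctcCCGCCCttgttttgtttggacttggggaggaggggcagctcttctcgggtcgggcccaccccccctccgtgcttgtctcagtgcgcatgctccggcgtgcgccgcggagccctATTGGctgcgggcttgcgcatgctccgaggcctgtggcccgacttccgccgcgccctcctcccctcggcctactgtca

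The windows of these genes shared a high CpG content. The Rab7 window shown held 18 CpG dinucleotides, that of Copg1 19, that of Huwe1 31 and that of Hp1bp3 41. Over the 10 windows the median was 28 (lowest 18), against 15 over 875 windows of genes on the array and 7 over all 32841 windows of the table. GGGCGG was found in 100% of the 10 windows, in 51.1% of the windows of array genes and in 35.7% of all windows. The other motifs were found at about the background share: CCAAT in 30.0% against 34.1% of array genes, TATAAA in 10% against 12.1%, and CACGTG in 10% against 8.1%. Motif matches are a description of letters and were not linked to the values below. On chromosome 6 of GRCm38.p6, the Rab7 gene spans 87999106 to 88045270, Copg1 spans 87887819 to 87913595 and Snrnp27 spans 86675169 to 86684491. Of the targeted genes, St6galnac2 and B4galnt2 share chromosome 11 with Ube2g1 (72607261 to 72686481), at 43.99 Mb and 23.2 Mb from it.

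Among the trafficking genes, Rab7 was the least steady between animals and Copg1 was the more tissue-dependent. In all that follows on tissues, order and range mix tissue with line, since kidney, mammary gland, thymus and testes came only from the B4galnt1/B4galnt2 line, thyroid and lymph node only from the St6galnac2 line, and brain and intestine from the St6galnac2 line and C57. Mean Rab7 levels (± SD over animals) ran from 9.56 ± 0.67 in brain (n = 9) and 9.47 ± 0.63 in kidney (n = 9) through 8.96 ± 0.57 in thyroid (n = 6), 8.66 ± 1.59 in intestine (n = 8), 8.43 ± 0.90 in lymph node (n = 6), 8.35 ± 0.75 in mammary gland (n = 7) and 8.19 ± 0.89 in thymus (n = 8) to 7.78 ± 0.52 in testes (n = 6). Every pair of neighbours in this order overlapped, with gaps smaller than the larger SD of the pair. Without the 4 arrays that stood apart, thymus followed thyroid in the order and intestine followed lymph node. The lowest Rab7 value in lymph node was 6.69 in WT animal 9362. It came from an array whose mean over Prol1 and B3gnt6 was 10.25, against 3.35 to 4.80 on the other lymph node arrays. The part of other tissue in this Rab7 value was not tested. Copg1 was at 9.81 ± 0.41 in brain and 8.41 ± 0.56 in intestine, and without the 4 arrays that stood apart the animals of these tissues no longer overlapped (9.90 ± 0.25 and 8.25 ± 0.36). The other 6 tissues lay lower, from 8.03 ± 0.31 in thymus to 7.25 ± 0.23 in lymph node, with no gap between neighbours larger than their SD.

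**Figure D1:**
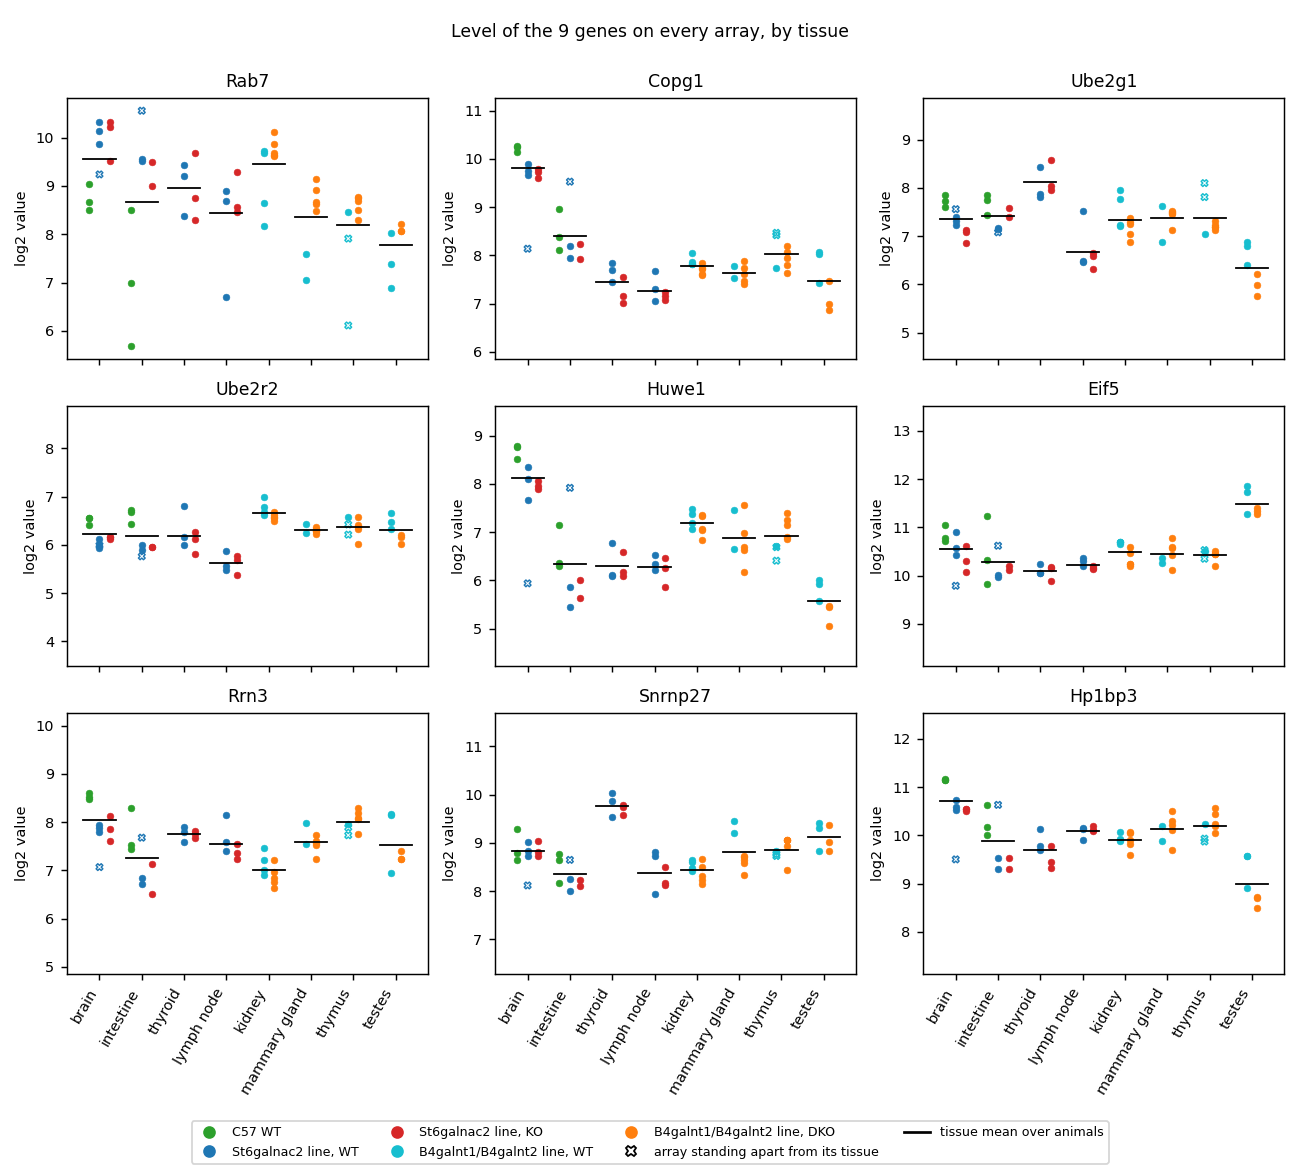
Log2 intensity of each of the 9 genes (one panel each, all panels spanning the same number of log2 units) on every array, by tissue, with points coloured by line and genotype, crosses for the arrays that stood apart and bars at the tissue means. Rab7 is scattered within tissues, from 5.69 to 10.56 in intestine, the latter on an array that stood apart. Eif5 in testes (11.27 to 11.86) and Snrnp27 in thyroid (9.53 to 10.04) stand above every other tissue.

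The ubiquitin genes had their extremes in different tissues. Ube2g1 was highest in thyroid (8.11 ± 0.32, n = 6), lay between 7.33 and 7.42 in intestine, thymus, mammary gland, brain and kidney, and was lowest in lymph node (6.67 ± 0.43) and testes (6.34 ± 0.44). The thyroid mean was above that of intestine, and the kidney mean above that of lymph node, by more than the larger SD, although single animals overlapped. Ube2r2 spanned the least of the 9 genes, from 6.67 ± 0.15 in kidney to 5.62 ± 0.19 in lymph node, with the other 6 tissue means between 6.17 and 6.36. Huwe1 was highest in brain (8.12 ± 0.57) and lowest in testes (5.58 ± 0.35), and its brain values did not overlap those of kidney (7.20 ± 0.21) once the 4 arrays were left out.

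Eif5 was the gene of the translation group with a tissue of its own. Its 6 testes animals lay between 11.27 and 11.86 (11.48 ± 0.25), above all animals of brain (10.08 to 11.06), the next tissue. Its other 7 tissue means ran from 10.55 in brain to 10.10 in thyroid. Intestine had the widest spread of these, reaching 11.23 in C57 animal M3, just below the lowest testes animal. Rrn3 was within 1.05 log2 units over all tissues, from 8.05 ± 0.41 in brain and 8.0 ± 0.20 in thymus to 7.0 ± 0.26 in kidney, and its neighbours overlapped throughout.

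Snrnp27, the splicing gene, was highest in thyroid, where all 6 animals (9.53 to 10.04) were above the highest testes animal (8.83 to 9.41), and lowest in intestine (8.35 ± 0.29). Its means lay between 9.13 and 8.81 in testes, thymus, brain and mammary gland, and between 8.45 and 8.35 in kidney, lymph node and intestine. Hp1bp3, the chromatin gene, was at 10.70 ± 0.37 in brain and 8.99 ± 0.47 in testes. The other 6 tissues were between 10.19 (thymus) and 9.69 (thyroid). Testes was thus the highest tissue of Eif5 and the lowest of Rab7, Ube2g1, Huwe1 and Hp1bp3.

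As references, the 9 genes were somewhat steadier over tissues than other well-detected probe sets, but none was flat. The range of the 8 tissue means was 1.04 for Ube2r2, 1.05 for Rrn3, 1.38 for Eif5, 1.40 for Snrnp27, 1.71 for Hp1bp3, 1.78 for Ube2g1, 1.79 for Rab7, 2.53 for Huwe1 and 2.55 for Copg1. The median of the 9, 1.71, stands beside 2.12 for the 486 named probe sets at or above the median level. A range under 1 log2 unit was found for 53 of those 486 (10.9%) and for 0 of the 9 genes, although Rrn3 came to 0.97 after a second quantile normalization and to 0.99 in WT animals only. The SD of the tissue means was below the median of the 486 (0.714) for 7 genes and above it for Copg1 (0.824) and Huwe1 (0.760). Ube2r2 had the smallest, 0.291, at the 5.6th percentile of the 486. The SD between animals of the same group was below the median of the 486 (0.369) for 7 genes, with Ube2r2 again the smallest (0.171), and above it for Huwe1 (0.437) and Rab7 (0.638). For Rab7 the spread between animals of a group was as large as its spread between tissues (ratio 0.97), where the median probe set had a tissue spread 1.87 times its spread between animals. Without the 4 arrays that stood apart, these ratios were 1.05 and 2.44. The SD between animals was then 0.585 for Rab7 and 0.312 for Huwe1, against a median of 0.305. These ranks are a description, since the genes were chosen with values in view.

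**Figure D2:**
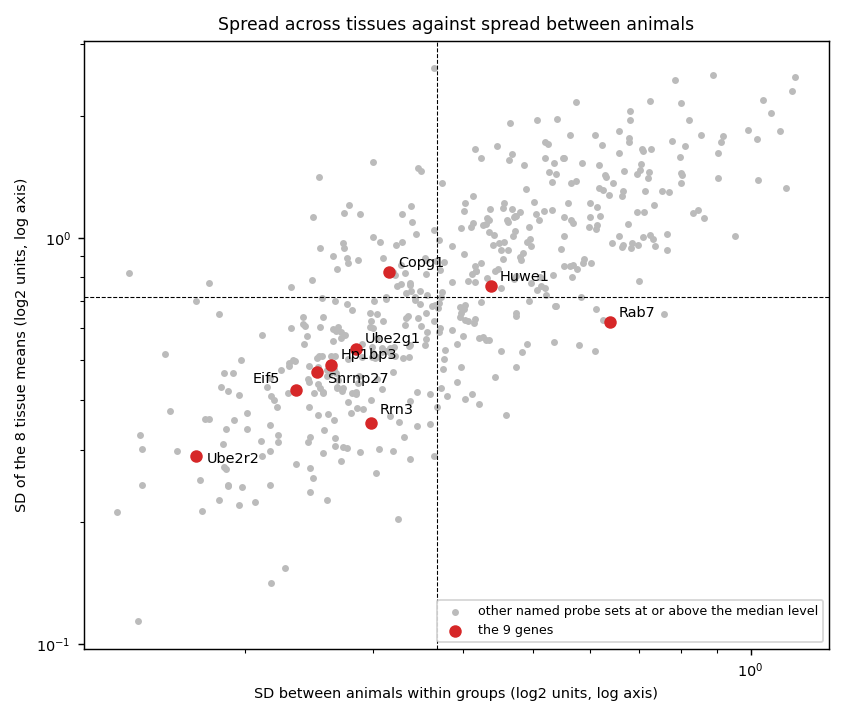
Pooled SD between animals of a group (horizontal axis, log2 units on a log axis) against the SD of the 8 tissue means (vertical axis, log2 units on a log axis) for the 486 well-detected named probe sets, grey, with the 9 housekeeping genes in red and labelled and dashed lines at the medians of the 486. Ube2r2 is lowest on both axes among the 9 (0.171 between animals and 0.291 between tissues), Copg1 and Huwe1 are highest between tissues, and Rab7 lies farthest to the right (0.638).

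Genes of the same pathways could be set beside them only in part. The array carried 10 of 40 listed trafficking and coat genes, 15 of 22 lysosomal genes, 1 of 30 ubiquitin genes (Itch, a ubiquitin ligase), 1 of 27 further reference genes (Gusb, a lysosomal glucuronidase), and 0 of 23 translation and 0 of 25 splicing and chromatin genes. Some of these had tissue means closer together than any of the 9. Cog3, a subunit of the Golgi tethering complex COG, had an SD of tissue means of 0.226 and a range of 0.75, and its partner Cog2 had 0.213 and 0.71. Man2b1, the lysosomal alpha-mannosidase, had 0.218 and 0.58, but its mean level of 5.51 was below that of the well-detected probe sets. Gusb was wider than 7 of the 9 (SD 0.741, range 2.20), and Copa, another COPI coat subunit, was narrower (range 0.98) than Copg1.

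Tissue differences among WT animals were tested with limma's moderated F. In the WT animals of the St6galnac2 line, 32.8% of the 962 probe sets were called at an adjusted p under 0.05, and 3 of the 9 genes: Copg1 (adjusted p = 0.0109), Snrnp27 (adjusted p = 0.0112) and Ube2g1 (adjusted p = 0.0372). Without the arrays that stood apart, the share rose to 73.6% and 8 of the 9 were called, Ube2r2 being the exception. In the WT animals of the B4galnt1/B4galnt2 line, 59.8% were called and 4 of the 9: Eif5 (adjusted p = 0.000137), Huwe1 (adjusted p = 0.000631), Snrnp27 (adjusted p = 0.00502) and Hp1bp3 (adjusted p = 0.0295). Without the arrays that stood apart, 69.1% were called and 5 of the 9, Rab7 being added (adjusted p = 0.0136). The share of the 9 called was thus near or below the background, except in the St6galnac2 line without those arrays. Of the pathway lists, 3 of 10 trafficking and 3 of 15 lysosomal genes were called in the first line, and 8 of 10 and 13 of 15 in the second.

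The mean of the 9 genes on an array was not a constant either. It ran from 7.53 to 9.14 over the 60 arrays (SD 0.351), a range of 1.61, while the array medians over all probe sets spanned 0.46 (SD 0.101). Brain arrays had the highest mean (8.76, or 8.85 without the array that stood apart), and lymph node (7.84) and testes (7.85) the lowest. Kidney, thyroid and thymus had the same mean, 8.26, with mammary gland at 8.17 and intestine at 8.09. Within a tissue the mean moved little in thyroid (range 0.19), lymph node (0.30) and kidney (0.30), and more in testes (0.63), intestine (0.90, or 0.55 without the array that stood apart) and brain (1.21, or 0.48 without that of the same animal).

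**Figure D3:**
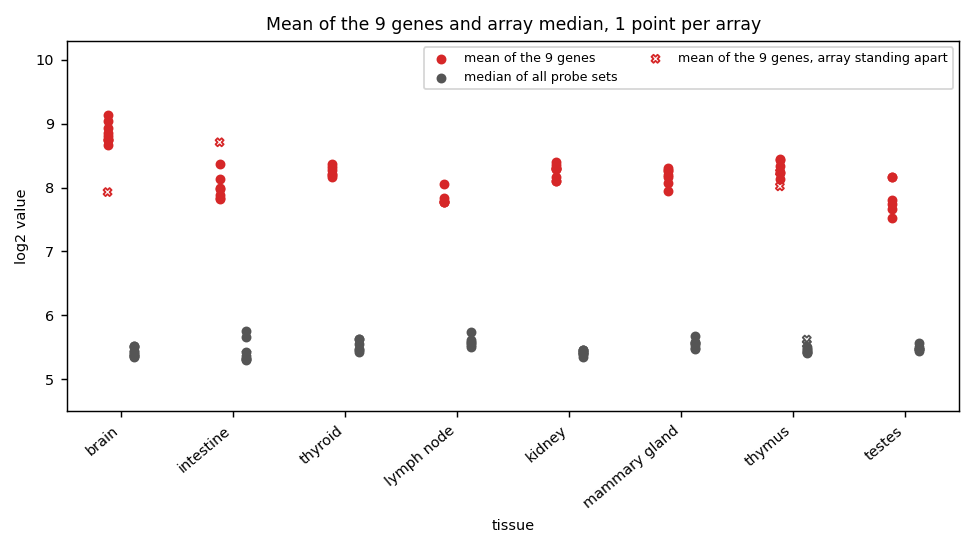
Mean log2 intensity of the 9 housekeeping genes on each array, by tissue, (red) beside the median of all probe sets of the same array (grey), with crosses for the arrays that stood apart. The 9-gene mean spans 1.61 log2 units over the arrays with brain highest, while the array medians span 0.46.

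Line differences could be examined only where the same tissue came from different lines, which is WT brain and intestine of the St6galnac2 line against C57. Rab7 was higher in the St6galnac2 line in both tissues, and the other 8 genes were lower in brain. Line and processing batch cannot be told apart in either tissue. These fits hold no sex term, since the C57 arrays carry no sex label. In brain, Rab7 was at 9.86, 9.78 and 10.13 in WT animals 9094, 9099 (mean of its 2 arrays) and 9362, and at 9.05, 8.67 and 8.50 in the 3 C57 animals. The groups did not overlap, and the difference was +1.18 ± 0.19 (SE). Here and in the comparisons below, lack of overlap only describes the animals shown. The share of all probe sets whose groups did not overlap was not counted. Hp1bp3 went the other way, at 10.59, 10.11 and 10.53 in the line and 11.17, 11.15 and 11.15 in C57 (difference -0.74 ± 0.15), also with no overlap. Copg1, next to Rab7 on the chromosome, was at 9.90, 8.95 and 9.66 against 10.26, 10.24 and 10.15 (-0.72 ± 0.26). The differences of the other genes were -1.01 ± 0.35 for Huwe1, -0.80 ± 0.15 for Rrn3, -0.49 ± 0.11 for Ube2r2, -0.40 ± 0.14 for Eif5 and -0.39 ± 0.12 for Ube2g1, and the difference of Snrnp27 was -0.16. None of the 962 probe sets passed the adjusted threshold (0%; the smallest adjusted p was 0.343, that of Rab7 and Rrn3 among others). At an unadjusted p under 0.05, 8 of the 9 genes passed, all but Snrnp27, against 10.7% of all probe sets. The median difference of all probe sets was -0.14, and that of the 9 genes -0.49. With each array centred on its median, the difference of all probe sets became -0.03, that of the 9 genes -0.38, and 5 of the 9 passed the unadjusted threshold. The share of 10.7% belongs to the arrays as deposited. No share of all probe sets is set beside the count with centred arrays. Without the array of 9099 that stood apart, whose value is averaged into those of that animal, the Rab7 difference was +1.36 ± 0.19 (adjusted p = 0.0644). Several of the lower genes then differed by less, with -0.45 ± 0.09 for Copg1, -0.65 ± 0.19 for Huwe1, -0.54 ± 0.08 for Hp1bp3, -0.66 ± 0.08 for Rrn3 and -0.21 ± 0.16 for Eif5. Ube2r2 (-0.50 ± 0.09) and Ube2g1 (-0.42 ± 0.10) differed by as much as before. Leaving out animal 9099 altogether gave -0.44 for Copg1.

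In intestine the Rab7 difference was larger and more scattered. The WT animals of the St6galnac2 line were at 9.51, 10.56 (the array of 9099 that stood apart) and 9.55, and the C57 animals at 8.51, 6.98 and 5.69. The groups did not overlap (+2.81 ± 0.77), but the C57 animals alone spanned as much as the difference between the groups. Ube2r2 was at 5.99, 5.76 and 5.90 against 6.43, 6.67 and 6.73 (-0.73 ± 0.17), and Ube2g1 at 7.17, 7.08 and 7.14 against 7.43, 7.75 and 7.85 (-0.55 ± 0.18). Again 0% of all probe sets were called (smallest adjusted p = 0.317), and 3 of the 9 genes passed the unadjusted threshold against 11.6% of all probe sets. The median difference of all probe sets, -0.25, moved to 0.03 with each array centred on its median, and 2 of the 9 then passed. The share of 11.6% is that before centring, and none is given for the centred arrays. The direction of the 9 was not stable to this scaling: 2 were higher in the line with a median of -0.26 as deposited, and 5 were higher with a median of 0.02 after centring. Copg1 was at +0.07 as deposited and at -0.42 ± 0.29 without the array that stood apart. Without that array, Rab7 was at +2.47 ± 0.79 (adjusted p = 0.182), Huwe1 at -0.94 ± 0.32, Rrn3 at -0.97 ± 0.30 and Hp1bp3 at -0.86 ± 0.24. The line's tissue is titled intestine and that of C57 small intestine. Fgf15, a hormone gene of the distal small intestine that was picked out after its values were seen, was at 6.51 to 8.33 in C57 and at 3.66, 3.66 and 4.09 in these WT animals, the last on the array that stood apart. In KO animals of the line, Fgf15 was at 4.16 and 7.04, the latter within the C57 range, and the part of the gut segment in the differences was not tested. Line, segment and processing batch cannot be told apart here.

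Further comparisons with C57 used more animals of the line, and the second of them was chosen after the data were seen. Taking KO and WT animals of the line together, 0 of the 9 genes were called (Rab7 in brain +1.23, adjusted p = 0.0533). The share of all probe sets called in that comparison is not set beside this count. The count therefore says nothing particular to these genes. In the second, with the arrays that stood apart also left out, 11.6% of all probe sets were called in brain and 7 of the 9 genes: Rab7 higher (+1.32 ± 0.20, adjusted p = 0.00845), and Hp1bp3 (-0.58 ± 0.06, adjusted p = 0.00337), Rrn3, Copg1, Ube2r2, Huwe1 and Ube2g1 lower. Eif5 (-0.37, adjusted p = 0.16) and Snrnp27 (-0.05, adjusted p = 0.822) were not called. In intestine 12.5% were called and 4 of the 9 genes: Rab7 higher (+2.33 ± 0.57, adjusted p = 0.0411), and Ube2r2 (-0.66 ± 0.12, adjusted p = 0.0209), Hp1bp3 (-0.85 ± 0.17, adjusted p = 0.0251) and Rrn3 (-0.95 ± 0.24, adjusted p = 0.0438) lower. The share of the 9 was above the background in both tissues. This is a description, since both the genes and the second comparison were chosen with values in view. That comparison was not fitted with centred arrays.

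**Figure D4:**
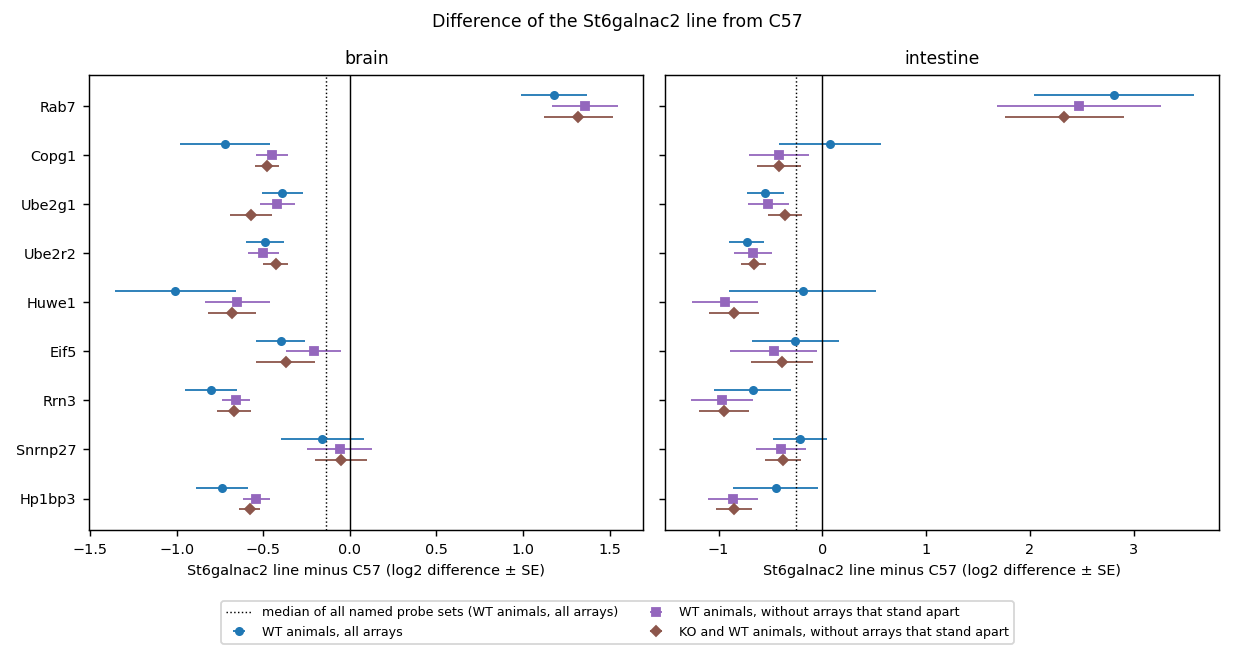
Log2 difference of the St6galnac2 line from C57 (± SE) for each of the 9 genes in brain and intestine, for WT animals with all arrays, WT animals without the arrays that stood apart, and KO and WT animals without them; the dotted line is the median of all named probe sets for WT animals. Rab7 is the only gene above 0 in both tissues in all 3 fits (+1.18 and +2.81 between WT animals), and the other 8 lie below 0 in brain.

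Between animals labelled KO and WT in the St6galnac2 line, none of the 9 genes was called in any of its 4 tissues, where 0% of all probe sets were called as well. In brain the differences of the 9 lay between -0.32 (Ube2g1) and +0.29, in intestine between -0.60 (Rab7) and +0.36, in lymph node between -0.35 and +0.69, and in thyroid between -0.42 and +0.15. Without the arrays that stood apart, the range was -0.30 to +0.13 in brain and -0.28 to +0.33 in intestine. The signs turned with it: in brain 2 genes in place of 7 were higher in KO, and in intestine 8 in place of 2. Rab7 overlapped between the genotypes: in thyroid it was at 8.29, 8.76 and 9.68 in KO and 9.20, 8.37 and 9.43 in WT animals. Its lymph node values were 8.57, 8.46 and 9.30 in KO and 8.68, 8.89 and 6.69 in WT animals. Copg1 in thyroid was at 7.56, 7.01 and 7.16 in KO and 7.84, 7.45 and 7.69 in WT animals, and 1 KO animal lay among the WT values. Copg1 (-0.42 ± 0.16) and Hp1bp3 (-0.35 ± 0.15) passed an unadjusted p under 0.05 in thyroid (adjusted p = 0.989 for both). Chga, the 1 thyroid-list gene measured, was at 12.73 to 13.06 in the WT thyroids and at 5.77, 7.79 and 12.83 in those labelled KO, and its part in these differences was not tested. Averaged over the 4 tissues, the largest difference among the 9 was -0.20 (0 called, 0% of all probe sets, smallest adjusted p = 0.977), and 0% of all probe sets differed in effect between tissues.

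In the B4galnt1/B4galnt2 line Rab7 tended to be higher in DKO animals. The other genes were lower in kidney and testes and of either sign in the remaining tissues. They ran from -0.71 (Snrnp27) to +0.20 (Eif5) in mammary gland and from -0.48 (Ube2g1) to +0.36 (Huwe1) in thymus, with all arrays as labelled. The median difference of all probe sets is not set beside these directions, so they are not shown to be particular to these genes. In mammary gland, Rab7 was at 8.66, 8.48, 9.15, 8.92 and 8.62 in the 5 DKO animals and at 7.59 and 7.05 in the 2 WT animals (+1.40 ± 0.18). All DKO animals were above both WT animals. This is one of the differences that were known when the genes were chosen. The mean over Prol1 and B3gnt6 was 6.91 and 7.21 in the 2 WT animals. In DKO animals N5891 to N5895 it was 3.38, 7.24, 3.34, 3.5 and 8.52, and its part in the differences of this tissue was not tested. Snrnp27 was lower in the same tissue, at 8.34 to 8.73 in DKO and 9.21 and 9.45 in WT animals (-0.71 ± 0.15). No probe set was called there (0%).

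In kidney, Rab7 was at 9.68, 9.65, 9.87, 10.11 and 9.62 in DKO animals and at 8.64, 8.18, 9.73 and 9.69 in WT animals N3738, N3740, N9686 and N9700. The first 2 WT animals were below all DKO animals, and the other 2 were among them (+0.69 ± 0.29, adjusted p = 0.333). Eif5 was at 10.19 to 10.60 in DKO and 10.65 to 10.70 in WT animals, with no overlap (-0.37 ± 0.08, adjusted p = 0.153). Ube2g1 (-0.38 ± 0.17) and Copg1 (-0.20 ± 0.08) also passed an unadjusted p under 0.05, as did 13.4% of all probe sets. After adjustment 0.104% of all probe sets were called and 0 of the 9 genes. The mean over the 2 kidney markers measured was 9.67, 10.14, 8.40, 9.80 and 8.61 in DKO animals N5891 to N5895 and 8.22 to 8.43 in WT animals, and its part in these differences was not tested. In thymus, Rab7 was at 8.29 to 8.78 in DKO animals and at 7.91, 6.11 and 8.47 in WT animals N3738, N3740 and N9700, and 0% were called. The first 2 of these WT arrays stood apart and had the high means over Prol1 and B3gnt6 given above. The part of other tissue was not tested, and with these 2 arrays left out the Rab7 difference was +0.11 ± 0.24.

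In testes most of the 9 genes were lower in animals labelled DKO. The array medians were 5.44, 5.48 and 5.47 in DKO animals N5893, N5894 and N5895. In WT animals N3738, N3740 and N9700 they were 5.51, 5.57 and 5.48. The part of the array level in this direction was not tested. Ube2g1 was at 5.98, 5.75 and 6.21 in DKO animals N5893, N5894 and N5895 and at 6.80, 6.87 and 6.41 in WT animals N3738, N3740 and N9700 (-0.71 ± 0.16). This Ube2g1 difference was known when the genes were chosen. Hp1bp3 was at 8.71, 8.49 and 8.72 against 9.58, 9.56 and 8.90 (-0.71 ± 0.19), and Rab7 at 8.22, 8.07 and 8.06 against 7.39, 6.89 and 8.03 (+0.68 ± 0.24). The groups did not overlap for these 3 genes, but for each of them WT animal N9700 was the WT animal nearest to the DKO values. How many of all probe sets separated in this way was not counted, so the lack of overlap is a description. Copg1, at 6.87, 6.99 and 7.47 against 8.03, 8.08 and 7.43, overlapped through that animal (-0.74 ± 0.21). Huwe1 (-0.51 ± 0.16) and Ube2r2 (-0.36 ± 0.13) were the other genes with an unadjusted p under 0.05, which 12.9% of all probe sets passed. After adjustment 0.312% of all probe sets were called and 0 of the 9. Igf2r, the receptor that carries lysosomal enzymes, was the only gene called among the listed pathway genes (-0.83 ± 0.12, adjusted p = 0.0261). Without N9700, 21.1% of all probe sets were called, and 8 of the 9 genes, all but Snrnp27: Rab7 was higher by 0.98 ± 0.15 and the other 7 were lower.

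**Figure D5:**
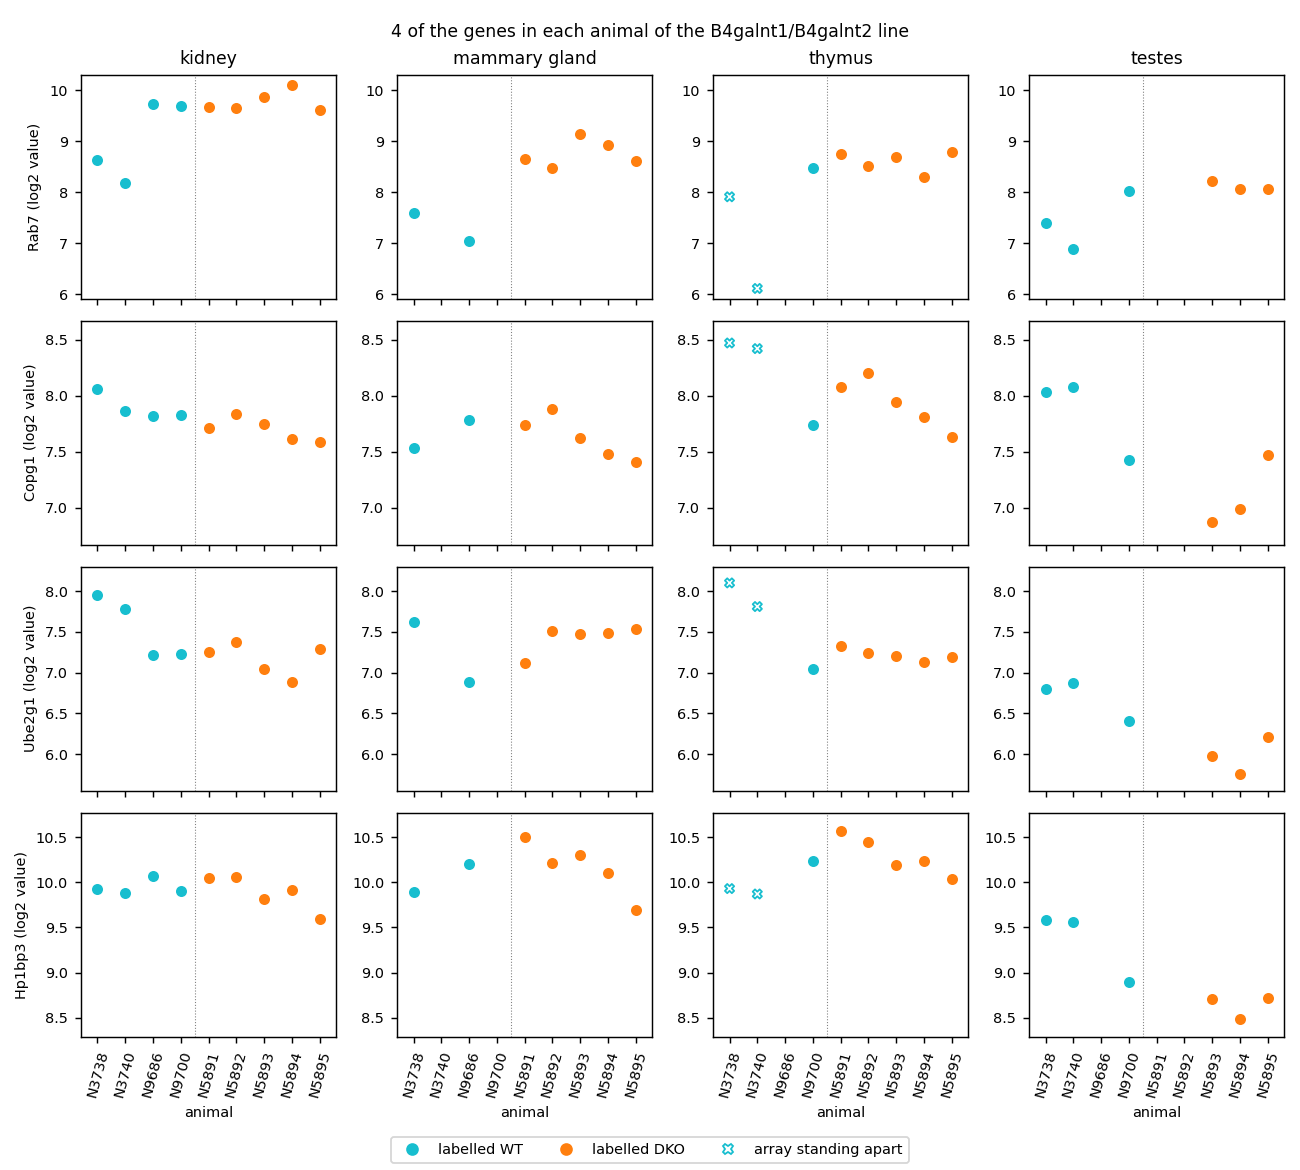
Log2 intensity of Rab7, Copg1, Ube2g1 and Hp1bp3 in each animal of the B4galnt1/B4galnt2 line, by tissue, DKO and WT animals in separate colours, with crosses for the arrays that stood apart. WT animals N3738 and N3740 lie below the DKO animals for Rab7 in kidney (8.64 and 8.18) and testes (7.39 and 6.89), while N9700 lies among or next to them (9.69 and 8.03).

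Averaged over the 4 tissues of the B4galnt1/B4galnt2 line with animal as a block, Rab7 was the only 1 of the 9 genes called (+0.96 ± 0.22, adjusted p = 0.038), beside 0.832% of all probe sets. This average holds the mammary gland difference that was known beforehand. Over kidney, thymus and testes alone it was +0.81 ± 0.24 (adjusted p = 0.119; 0% of all probe sets called), and with the 4 arrays that stood apart also left out +0.51 ± 0.20 (adjusted p = 0.734). Both were chosen after the data were seen. Without those arrays over all 4 tissues, it was +0.73 ± 0.18 (adjusted p = 0.0598). Leaving out 1 animal at a time, Rab7 was higher in DKO each time (+0.65 to +1.22) and was called in 2 of 9 fits. Copg1 (-0.33 ± 0.09, adjusted p = 0.0593) and Ube2g1 (-0.34 ± 0.11, adjusted p = 0.106) were lower and not called. The Ube2g1 average holds the testes difference that was known beforehand. Without WT animal N9700, 33% of all probe sets and 5 of the 9 genes were called. In that fit the only WT thymus arrays left were those of N3738 and N3740, which stood apart. The effect differed between tissues for 3.43% of all probe sets and 0 of the 9 genes (Hp1bp3 had the smallest adjusted p, 0.0595).

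Females were set against males in 2 tissues only, kidney and mammary gland. In kidney 9.04% of all probe sets differed and 0 of the 9 genes. Hp1bp3 was higher in females by 0.25 ± 0.08 (adjusted p = 0.0929) and Eif5 by 0.20 ± 0.08 (adjusted p = 0.156). In mammary gland 0.312% of all probe sets differed and 0 of the 9 genes, the largest difference being that of Huwe1 (+0.79 ± 0.20 in females, adjusted p = 0.219).

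The genes did not share one profile over the 18 groups of line, genotype and tissue. Among the 9, Huwe1 and Hp1bp3 were most alike (Pearson's r = 0.88), followed by Copg1 with Huwe1 (0.781) and Copg1 with Hp1bp3 (0.695), and Huwe1, Hp1bp3 and Copg1 were each highest in brain. Rab7 ran weakly with Copg1 (0.336) and against Rrn3 (-0.336) and Eif5 (-0.39), and the lowest value was that of Ube2g1 with Eif5 (-0.49). Outside the 9, the genes with the most similar profiles were Oga (0.948) and Extl3 (0.905) for Hp1bp3, B4gat1 (0.944) and Chst11 (0.938) for Huwe1, Atrn (0.937) and Ube2v1 (0.932) for Copg1, Notch4 (0.926) and St8sia2 (0.896) for Eif5, and Fzd7 (0.914) and Uap1 (0.899) for Ube2g1. Rrn3 was most like Extl1 (0.824) and Fgf13 (0.804), and Snrnp27 was most like Fut10 (0.827) and Fgf6 (0.817). The closest profiles had lower values for Ube2r2 (Gpc4, 0.741, and Il17rd, 0.733) and for Rab7 (Slc35a4, 0.665, and B3gat3, 0.629). These correlations describe 18 means that share animals and arrays, and the 2 most alike were taken from all named genes. Without the arrays that stood apart, Huwe1 and Hp1bp3 were still the most alike pair among the 9 (0.887), and the closest gene outside the 9 changed to Hnrnpul2 for Copg1 (0.953), Uap1 for Ube2g1 (0.871), Il17rd for Ube2r2 (0.81), Fgf13 for Rrn3 (0.859) and Chst11 for Huwe1 (0.958).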

How the data were processed

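Total RNA was labelled as biotinylated cRNA and hybridised to a custom Affymetrix glycan array, per the labels' protocols. The deposited table holds log2 intensities made by the authors with RMA, per the submitters' processing notes; further settings are not given in the sources used here. Probe sets were named through their RefSeq identifiers (962 of 1246). Arrays of 1 animal and tissue were averaged. Comparisons were fitted over all named probe sets with limma 3.58.1 in R 4.3.3 (sex as covariate where labelled, animal as a random block in averaged effects, with a block correlation of -0.118 for St6galnac2 animals and 0.074 for the others) and adjusted by Benjamini-Hochberg, with calls at 0.05. A plain fit of knockout against wild type was tested on simulated data for brain and kidney only. The sex term, the block, the averaged effects and the moderated F were not tested in this way. Descriptive tables were made with Python 3.11.15. All 9 genes were named; a difference was given singly where called or at an unadjusted p under 0.05, and a profile's 2 most similar genes by Pearson's r. Well-detected means a mean at or above the median of all values. Arrays give no read depth; their number limits the precision. The genes and lists were chosen with earlier results of these data known. Alternatives covered the scaling, the probe sets tested, 1 fit over all tissues, the arrays that stood apart, the block and 1 animal left out at a time.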

Additional observations from a re-analysis of the deposited data

Results flagged for a closer look

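In 4 groups of 4 to 10 animals, 36 sets of values of the 9 genes were examined, and in 4 of them 1 animal lay far from the rest; chance alone gives about 1 in 20. Copg1 in kidney was highest in WT animal N3738, at 8.06 against 7.82 to 7.86 in the other 3 WT animals. Eif5 in thymus was lowest in DKO animal N5893, at 10.2 against 10.44 to 10.51 in the other 4. Snrnp27 in thymus was lowest in DKO animal N5895, at 8.44 against 8.94 to 9.07. Ube2g1 in mammary gland was lowest in DKO animal N5891, at 7.12 against 7.47 to 7.53.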

How the results depend on the processing

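The counts of calls in the B4galnt1/B4galnt2 line depended on WT animal N9700. Over the fits that left out 1 animal, testes gave 0 to 203 probe sets and 0 to 8 of the 9 genes, thymus 0 to 375 and 0 to 3, the averaged effect 1 to 317 and 0 to 5, and its difference between tissues 0 to 362 and 0 to 6, each highest without N9700. With N9700 left out, the only WT thymus arrays are those of N3738 and N3740, which stood apart. All of these highest counts but that of testes therefore include a contrast of DKO thymus with those arrays. The other such ranges were 0 to 2 probe sets in thyroid, in kidney and in mammary gland (0 to 1 of the 9 genes there), 0 to 1 for the St6galnac2 line against C57 in intestine and for the averaged St6galnac2 effect, and 44 to 111 (kidney) and 0 to 14 (mammary gland) for sex.

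With all arrays of a line in a single fit, the calls between genotypes were 1 probe set in lymph node, 0 in kidney, 1 in testes, 265 in thymus and 34 in mammary gland, with 1 of the 9 genes (Rab7) in the last. A second quantile normalization gave 1 probe set in mammary gland, which was Rab7. Without the 4 arrays that stood apart, 708 probe sets and 8 of the 9 genes differed between WT tissues of the St6galnac2 line, and 1 probe set between the line and C57 in intestine. The comparison with C57 chosen after the data were seen gave 112 probe sets and 7 of the 9 genes in brain, and 120 and 4 in intestine. With well-detected probe sets only, 174 and 369 differed between WT tissues and 0 by sex in mammary gland, since fewer were tested.

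For the averaged B4galnt1/B4galnt2 effect, 4 probe sets were called with centred arrays, 5 after the second quantile normalization, 34 with all probe sets of the table, 2 with well-detected ones, 5 (and 0 of the 9 genes) without the 4 arrays, and 0 (and 0) in both averages over 3 tissues. Without the replicate block there were 49 and 2 of the 9 (Rab7 and Copg1). The difference between tissues gave 10, 17, 6 and 13 probe sets with centred arrays, the second normalization, the 4 arrays left out and no replicate block. The averaged St6galnac2 effect gave 1 with all probe sets. No other cause was tested. The 34 single differences followed under the alternatives were those with an unadjusted p under 0.05 in the main fit, which favours a kept direction. Of their 229 values, 214 kept their direction and side of the threshold, 12 gained and 3 lost a call, and 0 changed direction. Only the averaged Rab7 effect in the B4galnt1/B4galnt2 line was called in the main fit. Keeping the side of the threshold thus mostly meant staying uncalled.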
